A study of Homo sapiens with 6 samples.

Results

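The FAM83 genes encode 8 proteins, FAM83A to FAM83H, that share a domain through which they bind kinases of the casein kinase 1 (CK1) family and carry them to particular places in the cell. FAM83A and FAM83B are known for promoting growth signalling below EGFR, and FAM83A, which binds the p85 subunit of PI 3-kinase, is often abundant in lung adenocarcinoma. FAM83D brings CK1 alpha to the mitotic spindle with HMMR, FAM83G (also called PAWS1) binds SMAD1 and acts in Wnt signalling with CK1 alpha, FAM83F also acts in Wnt signalling, and FAM83H binds keratins and is mutated in inherited enamel defects.

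All transcripts whose gene name is FAM83A to FAM83H were taken, which gave 8 of the 26334 gene symbols and 10 of the 51398 isoforms. FAM83A has 3 isoforms among them and each of the other 7 genes has 1. The cells were PC-9, a human lung adenocarcinoma line with an activating EGFR mutation, grown with serum and without drug. RNA-Seq was performed on cells that carried a scrambled shRNA (shScr), shRBM10#1 or shRBM10#2, the last 2 directed against RBM10, an RNA-binding protein that regulates splicing. Each condition had 2 libraries, 6 in all. The groups share the cell line and the presence of an shRNA. The methods call the controls parental PC-9 cells, whereas their labels name shScr, which is the name used here. Nothing states that the libraries came from separate cultures, so the tests measure the spread between these libraries, which may be technical. FAM83A was chosen by its level in these same libraries, which was lower than with shScr with both shRNAs. Its values against shScr are therefore given as a description with no test, and it is left out of counts of members that changed.

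Library totals were 31953729 to 37557507 expected counts, the fractional read counts that result when reads shared by isoforms are divided among them. The mean fragment was 231 nt long in shScr replicate 2 and 265 to 281 nt in the other libraries. RBM10, the targeted gene, was at 83.2 and 86.2 CPM (counts scaled to library size with TMM) with shScr, 59.8 and 56.4 with shRBM10#1 and 27.2 and 26.9 with shRBM10#2. Its log2 FC was -0.54 with shRBM10#1 (FDR = 0.000228) and -1.65 with shRBM10#2 (FDR = 5.1e-08) by the quasi-likelihood test of edgeR, so 68.6% and 31.9% of the shScr level were left. Epithelial markers were abundant, with EPCAM at 368 to 448 CPM and KRT8 at 8681 to 11110 CPM, whereas the lung lineage genes NKX2-1 and SFTPB did not exceed 0.486 and 0.0616 CPM. Of 10 such markers 8 were tested, and 1 rose with shRBM10#1, while 1 rose and 2 fell with shRBM10#2. Beside these and the next counts stand the 14.0% of all tested genes called with shRBM10#1 and the 25.9% with shRBM10#2. Of 9 markers of other cell types, 5 had enough counts to be tested, of which 1 rose and 1 fell with shRBM10#1 and 2 fell with shRBM10#2. CD68 was the highest, at 82.5 to 114 CPM, and fell with both (-0.33 and -0.42), whereas the leukocyte marker PTPRC did not exceed 0.162 CPM. All 6 libraries are of PC-9, 1 cultured line, so the markers are not read as numbers of cells of other types. Bulk RNA does not tell fewer cells with a transcript from less of it per cell.

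FAM83A (a gene on the plus strand of chromosome 8, from 123178960 to 123210079 in GRCh38 by GENCODE 29) was at 91.9 and 91.5 CPM in the shScr libraries. The shRBM10#1 libraries had 38.7 and 38.4 CPM, those of shRBM10#2 30.3 and 29.7 CPM. The 3 conditions did not overlap and the libraries of each condition lay close together. The log2 FC against shScr was -1.25 (SE 0.0659) with shRBM10#1 and -1.61 (SE 0.0668) with shRBM10#2, which left 42.0% and 32.7% of the shScr level. Among the 14217 genes tested, 170 had a lower log2 FC than FAM83A with shRBM10#1 and 49 with shRBM10#2. The values against shScr and these ranks come from the comparisons by which FAM83A was chosen, so they restate that choice.

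**Figure D1:**
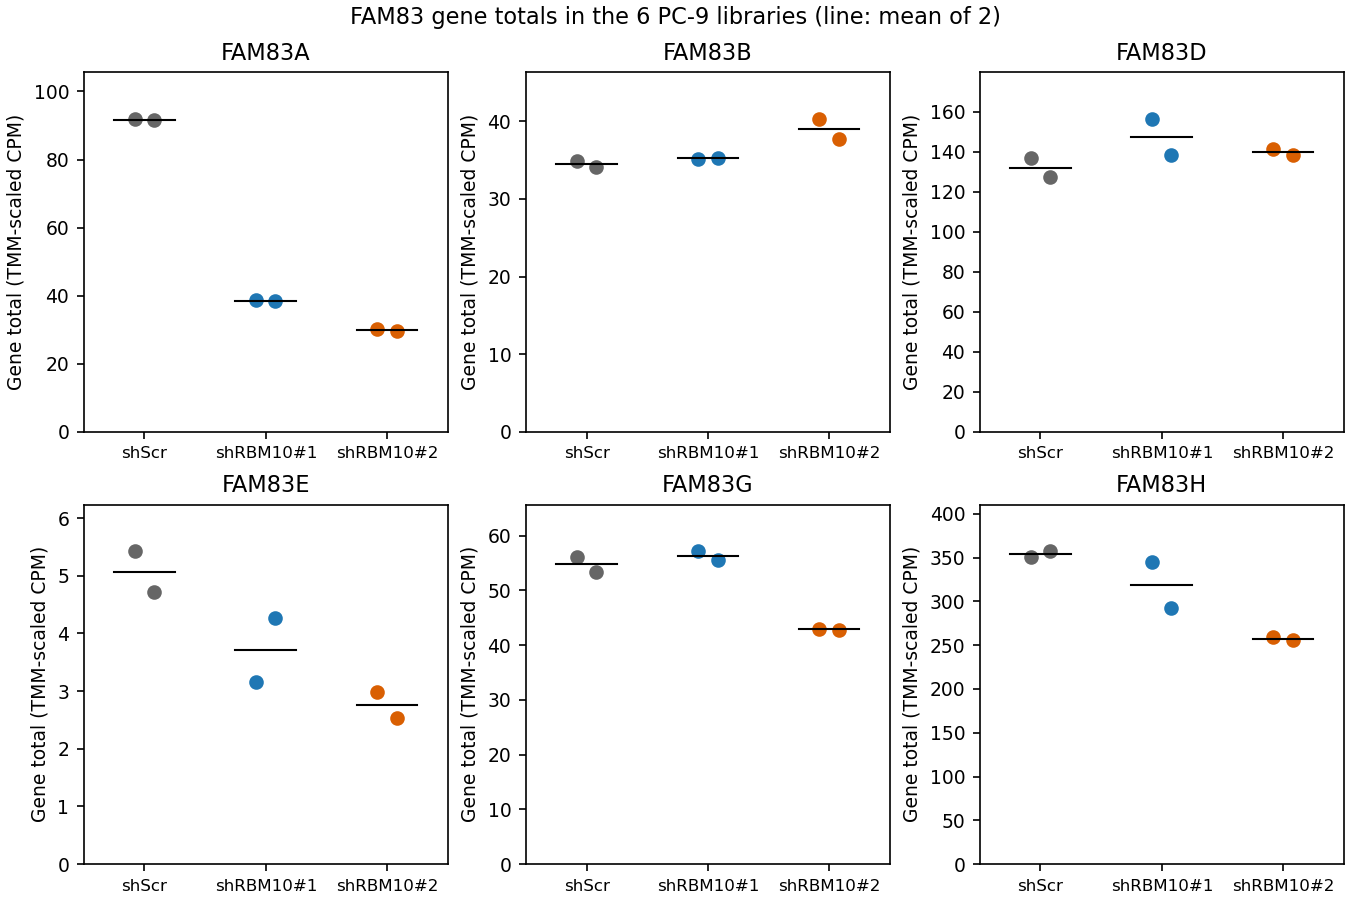
Gene totals in TMM-scaled CPM (y axis, from 0) of the 6 FAM83 genes with enough counts to be tested, for the 2 libraries of each condition (x axis), with a line at the mean. FAM83A lies at 91.5 to 91.9 CPM with shScr and at 29.7 to 38.7 CPM with either shRNA. FAM83G and FAM83H are lowest with shRBM10#2.

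The shRNAs were compared with each other, a contrast that the choice of FAM83A did not use, although it draws on the same knockdown libraries. FAM83A was lower with shRBM10#2 than with shRBM10#1 by a log2 FC of -0.36 (95% interval -0.51 to -0.22, FDR = 0.00269). In that comparison 25.5% of the 14217 tested genes were called and 14.5% were called and lower. RBM10 was lower with shRBM10#2 in the same comparison, with a log2 FC of -1.11 (FDR = 3.7e-06). Without shRBM10#2 replicate 2 the FAM83A difference was -0.34 and missed the threshold (FDR = 0.0638).

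All 3 FAM83A isoforms were lower with both shRNAs. NM_032899, with 5 exons and a coding sequence of 434 codons, is the longest of them in coding sequence. It was at 23.0 and 25.5 TPM (a share of all transcripts, corrected for length) with shScr, 9.79 and 9.05 with shRBM10#1, and 7.64 and 7.59 with shRBM10#2. NM_001288587, with 4 exons and 294 codons, starts inside the second exon of NM_032899 and lacks the 168-nt exon of NM_032899 at 123191803 to 123191970. It was at 8.71 and 13.9 TPM with shScr, 4.42 and 4.87 with shRBM10#1, and 2.96 and 3.83 with shRBM10#2. NM_207006, with 6 exons and 367 codons, splices within the last exon of NM_032899 and was the lowest, at 4.07 and 3.47 TPM with shScr, 1.49 and 1.48 with shRBM10#1, and 1.59 and 0.86 with shRBM10#2. The shScr libraries lay above all 4 knockdown libraries for each isoform. These isoforms make up the level by which FAM83A was chosen, so their falls restate that choice. Exons and codons are those of GENCODE 29, whose transcript lengths for NM_032899 (5393 nt) and NM_001288587 (1604 nt) differ from the 4596 and 2260 nt in the files.

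The isoforms kept about the same shares of the gene. NM_032899 held 74.8% ± 1.9 (SD, n = 2) of the FAM83A expected counts with shScr, 73.9% ± 1.92 with shRBM10#1 and 75.0% ± 0.827 with shRBM10#2. In single libraries the share ran from 72.6% (95% Wilson interval 70.2% to 74.8%) to 76.1% (74.6% to 77.6%), and the conditions overlapped. The intervals cover counting error only. NM_001288587 held 15.9% ± 3.81, 16.8% ± 1.66 and 15.4% ± 3.08 in the same order. The libraries of 1 condition differed more than the conditions did, as shScr replicate 1 was at 13.2% and shScr replicate 2 at 18.6%. NM_207006 held 9.31% ± 1.91, 9.25% ± 0.256 and 9.54% ± 3.91. Between the shRNAs, isoform usage of FAM83A did not pass edgeR's diffSpliceDGE test (FDR = 1), in a comparison where 1.92% of 6405 genes with several isoforms were called. Measured in TPM, which credits the shorter isoform more, NM_032899 held 60.6% to 62.3% and NM_001288587 27.7% to 29.9% on average in each condition.

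**Figure D2:**
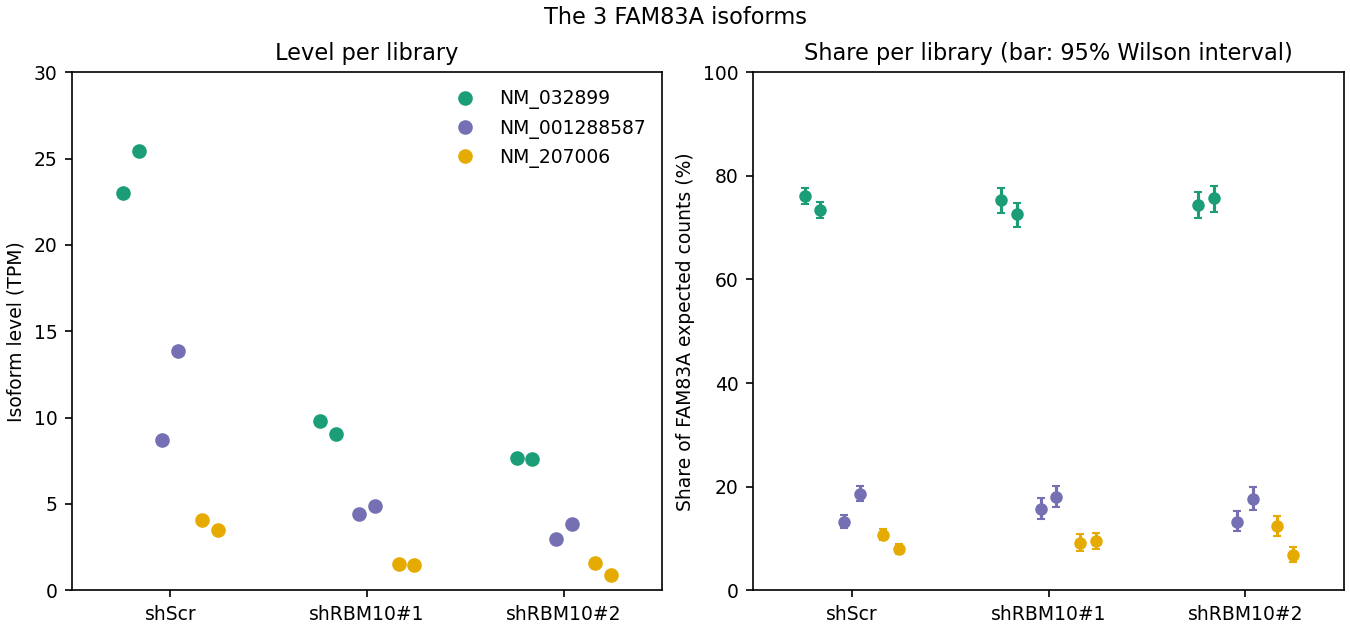
The 3 FAM83A isoforms in each of the 6 libraries. The left panel gives the level in TPM and the right panel the share of the gene's expected counts with its 95% Wilson interval. All 3 isoforms are lower with both shRNAs, and NM_032899 holds 72.6% to 76.1% of the counts in every library.

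FAM83A-AS1 lies on the minus strand within an intron of FAM83A and had 0 to 8 counts per library. AC068228.1, also on the minus strand, shares 389 nt of exon with the FAM83A isoforms and was not quantified under that name. DERL1 and TBC1D31, which neighbour FAM83A, had log2 FCs of -0.10 and -0.25 with shRBM10#1 and -0.18 and -0.12 with shRBM10#2, and neither passed the test. ZHX1 and ATAD2, also neighbours of FAM83A, were each called with 1 shRNA. ZHX1 fell with shRBM10#1 (-0.33, FDR = 0.0131) and was not called with shRBM10#2 (-0.11). ATAD2 rose with shRBM10#2 (0.27, FDR = 0.0128) and was not called with shRBM10#1 (-0.06). Over a list of 28 neighbours of the FAM83 genes, 21 were tested. Of these, 2 fell with shRBM10#1, and 3 rose and 3 fell with shRBM10#2. Among all tested genes, 14.0% were called with shRBM10#1 and 25.9% with shRBM10#2. Nothing particular to the neighbours is read from these counts.

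The members differed widely in level, which was compared in TPM. With shScr, FAM83H (102 ± 11.5 TPM, mean ± SD of 2 libraries) and FAM83D (93.3 ± 3.8) were the highest. Their libraries overlapped in TPM and not in FPKM, where FAM83H was at 65.3 and 66.6 and FAM83D at 63.0 and 58.1. FAM83A (39.3 ± 4.93) and FAM83G (31.4 ± 1.84) came next and did not overlap, followed by FAM83B (8.85 ± 0.75) and FAM83E (4.41 ± 0.0566). FAM83C and FAM83F were near 0, with 0 to 2 counts in every library against a detection floor of 3 counts. They did not pass the filter, so 6 of the 8 genes were tested, 5 of them other than FAM83A. With both shRNAs FAM83A stood behind FAM83G in this order, at 15.6 ± 0.212 against 30.3 ± 1.36 TPM with shRBM10#1 and 12.2 ± 0.0636 against 23.6 ± 0.099 TPM with shRBM10#2. FAM83D stood first with both shRNAs. It overlapped FAM83H with shRBM10#1 and was above it with shRBM10#2, at 94.9 ± 1.92 against 70.7 ± 0.771 TPM. Over the 6 libraries FAM83D and FAM83H had a higher mean TPM than 89.5% and 88.5% of the tested genes, FAM83A than 64.3% and FAM83E than 26.5%.

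FAM83B, the member closest to FAM83A in its known role in growth signalling below EGFR, passed no test. It was at 34.9 and 34.1 CPM with shScr, 35.1 and 35.3 with shRBM10#1 and 40.3 and 37.7 with shRBM10#2. The shRBM10#2 libraries were above the other 4. The log2 FC was 0.03 with shRBM10#1 (95% interval -0.13 to 0.19, FDR = 0.834) and 0.18 with shRBM10#2 (0.02 to 0.33, FDR = 0.0896). FAM83D, the spindle member, also passed no test. It was at 137 and 127.5 CPM with shScr, 156 and 139 with shRBM10#1 and 142 and 138 with shRBM10#2. Its log2 FC was 0.16 (0.00 to 0.31, FDR = 0.171) and 0.08 (-0.07 to 0.24, FDR = 0.434). Without shRBM10#1 replicate 2 the first of these was 0.24 and passed (FDR = 0.0475), and without replicate 1 it was 0.07 (FDR = 0.525).

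FAM83A is left out of these counts. Of the 5 tested members from FAM83B to FAM83H, none was called with shRBM10#1, where 14.0% of the 14217 tested genes were called. With shRBM10#2, FAM83E, FAM83G and FAM83H were called and all were lower, which is 3 of the 5 tested. In that comparison 25.9% of all genes were called and 13.9% were called and lower. When both shRNAs were set together against shScr, none of the 5 was called and 1.62% of all genes were. In that test the shRNAs are 1 group, and their unequal values count as spread.

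FAM83E binds CK1 and is otherwise little described. It had few counts, 97 to 176 per library. It was at 5.42 and 4.71 CPM with shScr, 3.17 and 4.26 with shRBM10#1 and 2.99 and 2.53 with shRBM10#2, and the 3 conditions did not overlap. The log2 FC was -0.44 with shRBM10#1 (95% interval -0.84 to -0.04, FDR = 0.135) and -0.88 with shRBM10#2 (-1.28 to -0.47, FDR = 0.00553). The difference between the shRNAs, -0.44, did not pass (FDR = 0.116). The shRBM10#1 libraries lay far apart. Without its replicate 1 the log2 FC against shScr was -0.25 and the difference between the shRNAs was -0.63 and passed (FDR = 0.0398). Without its replicate 2 these were -0.68 and -0.20, and neither passed. Without shRBM10#2 replicate 2 the difference with shRBM10#2 was -0.76 and missed the threshold (FDR = 0.0756).

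FAM83G, the SMAD1 partner, was at 56.2 and 53.4 CPM with shScr and at 57.1 and 55.5 with shRBM10#1, which overlapped. It was at 42.9 and 42.8 with shRBM10#2, below the other 4 libraries. The log2 FC was 0.04 with shRBM10#1 (-0.11 to 0.18, FDR = 0.753) and -0.35 with shRBM10#2 (-0.50 to -0.21, FDR = 0.00301), and the shRNAs differed by -0.39 (-0.54 to -0.25, FDR = 0.00165). Without shRBM10#2 replicate 2 the difference from shScr was -0.35 with an FDR of 0.0585. The only isoform listed, NM_001039999, was also tested among the 26464 isoforms, of which 0.0302% were called with shRBM10#1, 2.26% with shRBM10#2 and 2.25% between the shRNAs. It passed between the shRNAs (FDR = 0.0446) and had an FDR of 0.0501 with shRBM10#2 against shScr, from the same reads as the gene total. The isoform call between the shRNAs was lost with the replicate block (FDR = 0.12), with only the compared libraries in the fit (FDR = 0.0669) and without any 1 of the 6 libraries (FDR = 0.0751 to 0.257). SLC5A10 overlaps FAM83G on the opposite strand, by 393 nt of exon, and had 10 to 18 counts per library.

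The promoters of FAM83G, which fell with shRBM10#2, and FAM83B, which passed no test, are shown as sequences only. Whether their motifs bear on the levels was not tested. RefSeq windows of 250 bases before to 50 after the start were matched for 4 of the 8 genes, FAM83B, FAM83C, FAM83E and FAM83G. The window of FAM83E does not hold the start of its listed isoform and is not shown. Both strands were searched for the AP-1 motif written TGANTCA and the ETS motif written CCGGAAG. The GC box was searched as GGGCGG and the E-box as CACGTG. The TATA motif was searched as TATAAA and the cyclic AMP response motif as TGACGTCA. Capitals mark matches to TGANTCA or CCGGAAG on either strand. FAM83G is shown from chr17:19004715-19005014 on the minus strand and FAM83B from chr6:54846521-54846820 on the plus strand (GRCh38.p14), each 5′ to 3′.
FAM83G: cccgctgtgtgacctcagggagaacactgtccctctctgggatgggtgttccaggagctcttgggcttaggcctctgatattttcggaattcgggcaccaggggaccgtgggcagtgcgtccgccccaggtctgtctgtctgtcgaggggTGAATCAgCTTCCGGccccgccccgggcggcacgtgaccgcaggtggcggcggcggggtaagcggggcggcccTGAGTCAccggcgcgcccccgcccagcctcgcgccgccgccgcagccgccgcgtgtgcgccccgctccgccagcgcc
FAM83B: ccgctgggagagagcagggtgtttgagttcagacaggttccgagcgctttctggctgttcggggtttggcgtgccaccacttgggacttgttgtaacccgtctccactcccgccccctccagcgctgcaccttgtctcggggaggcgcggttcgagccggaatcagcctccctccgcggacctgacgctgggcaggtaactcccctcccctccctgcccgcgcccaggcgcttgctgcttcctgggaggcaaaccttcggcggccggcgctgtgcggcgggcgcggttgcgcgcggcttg
The FAM83G window held 2 matches to TGANTCA, which 7.71% of 35116 promoter windows hold at least once, 1 to CCGGAAG (10.3% of windows), 5 to GGGCGG (45.0%) and 1 to CACGTG (7.26%). The FAM83B window held 1 match to GGGCGG and none to the others. TATAAA (11.5% of windows) and TGACGTCA (1.85%) were in neither. No match overlapped a match to another motif. A match is a description of these letters only.

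FAM83H, the keratin partner, is also on chromosome 8, on the minus strand. It was at 351 and 357 CPM with shScr, 345 and 292 CPM with shRBM10#1, falling to 259 and 256 CPM with shRBM10#2. The shRBM10#2 libraries were the lowest, and shRBM10#1 lay between with libraries far apart. The log2 FC was -0.15 with shRBM10#1 (-0.32 to 0.01, FDR = 0.212) and -0.46 with shRBM10#2 (-0.63 to -0.29, FDR = 0.00142), and the shRNAs differed by -0.31 (-0.47 to -0.14, FDR = 0.0115). The values with shRBM10#1 turned on its libraries. Without replicate 1 the log2 FC was -0.28 and passed (FDR = 0.0111), and the difference between the shRNAs was then -0.19 and missed the threshold (FDR = 0.0542). Without either shRBM10#2 library that difference also missed it, with FDR = 0.0939 and 0.132. FAM83H-AS1, a gene beside FAM83H, was at 59.2 to 66.8 CPM and passed no test. Whether the libraries kept the strand is not stated, so reads of antisense partners cannot be told apart from those of their genes.

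**Figure D3:**
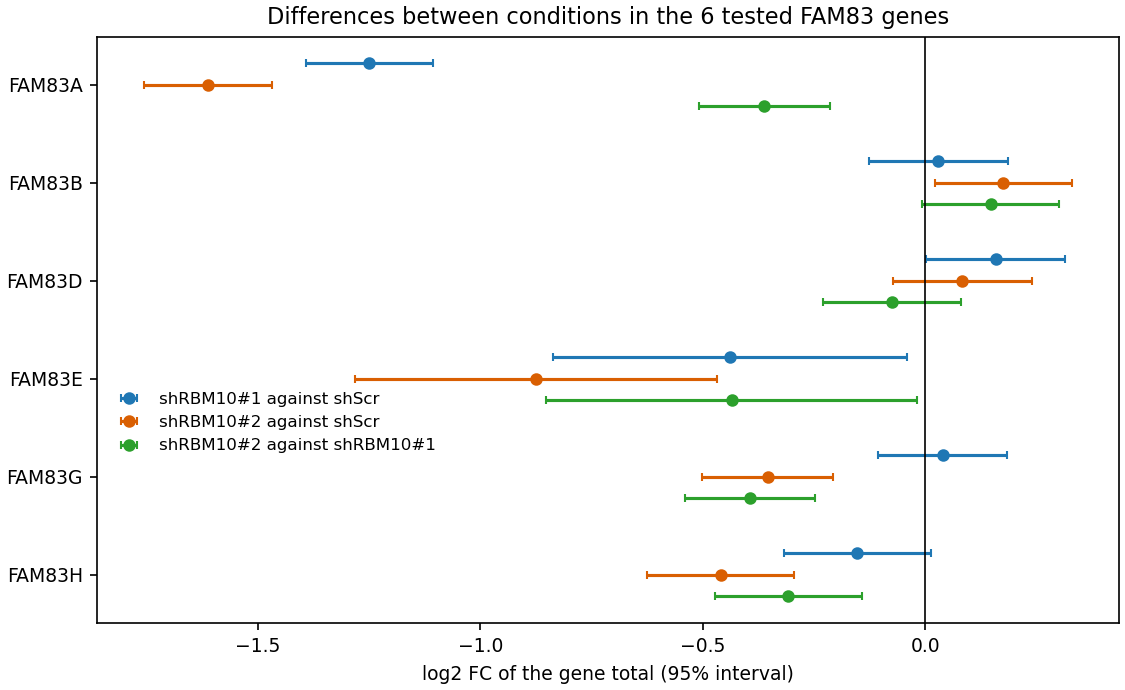
The log2 FC of the gene total (x axis, with 95% interval) for the 6 tested FAM83 genes in the 3 pairwise comparisons (colors). FAM83E, FAM83G and FAM83H lie below 0 with shRBM10#2, at -0.88, -0.35 and -0.46, and FAM83B and FAM83D lie at 0.18 and 0.08. FAM83A is drawn as a description against shScr.

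The members that fell with shRBM10#2 have GC-rich transcripts, and the differences in these libraries moved with GC content. The transcripts of FAM83E, FAM83H and FAM83G are 66.5%, 66.3% and 61.8% GC, in the richest of 5 equal groups into which the 13733 tested genes with a known GC content (96.6% of those tested) were divided. Those of FAM83A are 56.9%, of FAM83D 50.7% and of FAM83B 40.8% GC. Across all genes the median log2 FC with shRBM10#2 ran from 0.14 in the group with the least GC to -0.14 in the group with the most. Genes called lower made up 2.84% of the former and 27.5% of the latter. Between the shRNAs these medians were 0.16 and -0.21, and with shRBM10#1 against shScr they were -0.01 and 0.07. FAM83E, FAM83G and FAM83H were below the median of their group with shRBM10#2. Whether GC content bears on the differences of these members was not tested.

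An offset for GC content, chosen after the data were seen, was added to the fit. It takes out a trend with GC content whatever its source, and the source was not tested. With shRBM10#2 all 3 stayed lower and called, with log2 FCs of -0.70 for FAM83E (FDR = 0.0229), -0.21 for FAM83G (FDR = 0.0335) and -0.29 for FAM83H (FDR = 0.0236). With shRBM10#1 none of the 3 was called under the offset. FAM83E was at -0.53 (FDR = 0.0762), FAM83G at -0.02 (FDR = 0.833) and FAM83H at -0.25 (FDR = 0.0561). Between the shRNAs FAM83G (-0.19, FDR = 0.0641) and FAM83H (-0.05, FDR = 0.743) were no longer called. FAM83E, not called there without the offset, was at -0.17 (FDR = 0.588). FAM83A remained lower with shRBM10#2 than with shRBM10#1 (-0.24, FDR = 0.0321), and its values against shScr were -1.28 and -1.52. FAM83B had a log2 FC of 0.06 with shRBM10#2 under the offset.

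**Figure D4:**
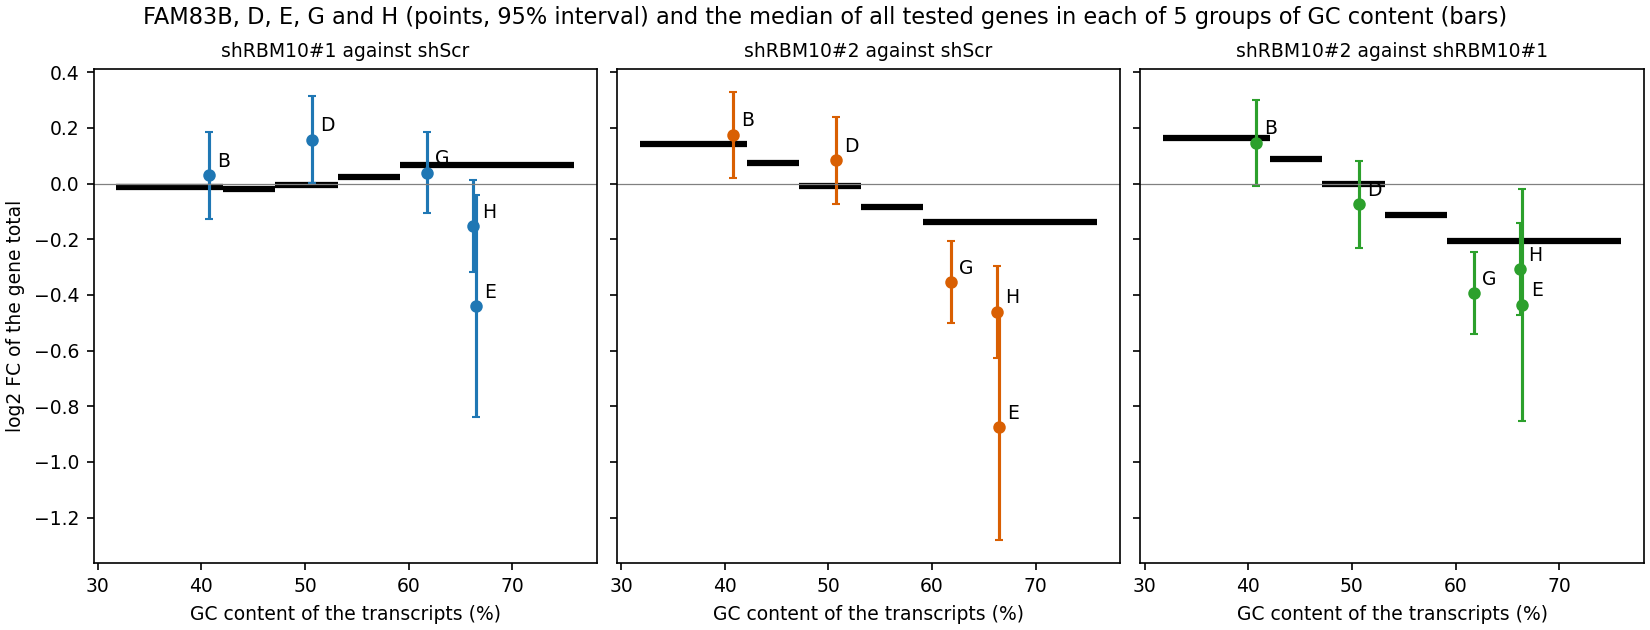
The log2 FC (y axis, points with 95% interval) of FAM83B, FAM83D, FAM83E, FAM83G and FAM83H against the GC content of their transcripts (x axis, %), in 3 comparisons. Black bars give the median log2 FC of all tested genes in each of 5 groups of GC content. With shRBM10#2 the bars fall from 0.14 to -0.14, and FAM83E, FAM83G and FAM83H lie below the last bar.

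The genes that work with FAM83 proteins were described by list, without the GC offset. The counts on each list stand beside the 14.0% of all tested genes called with shRBM10#1 and the 25.9% with shRBM10#2, and nothing particular to a list is read from them. Of 7 CK1 genes listed, 6 were tested, and none was called with shRBM10#1. With shRBM10#2, 1 rose and 2 fell, with a median log2 FC of -0.11 over the 6 against 0.01 over all genes. CSNK1D (CK1 delta) fell by 0.42 on the log2 scale (FDR = 0.000895) and CSNK1E (CK1 epsilon) by 0.26 (FDR = 0.0195), and CSNK1G3 rose by 0.23 (FDR = 0.0441). CSNK1A1, which encodes CK1 alpha, the partner of FAM83D and FAM83G, was at 315 to 366 CPM and was not called, with log2 FCs of -0.02 and -0.15.

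Of 19 growth signalling genes that work with FAM83A and FAM83B, 1 rose and 3 fell with shRBM10#1, and 4 rose and 6 fell with shRBM10#2. EGFR, the receptor mutated in PC-9, fell with both (log2 FC -0.29, FDR = 0.0442, and -0.38, FDR = 0.00758). It was at 255 and 280 CPM with shScr, 241 and 197 with shRBM10#1 and 208 and 202 with shRBM10#2. HRAS fell by 0.32 and 0.46 on the log2 scale, and MAP2K1 (the ERK kinase MEK1) fell by 0.29 and 0.19. The median of the list was -0.00 and -0.09, against 0.01 over all genes in both comparisons.

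The ERK-dependent transcripts moved in both directions. Of 15, 4 rose and 3 fell with shRBM10#1, and 2 rose and 3 fell with shRBM10#2. DUSP6, an ERK phosphatase, rose with both (0.49, FDR = 0.00336, and 0.28, FDR = 0.0405), as did SPRY1, a feedback inhibitor of RAS signalling (0.55 and 0.37). FOSL1, a subunit of AP-1, fell with both, by 0.71 (FDR = 0.000266) and 0.51 (FDR = 0.00176) on the log2 scale. It was at 51.1 and 44.0 CPM with shScr and 27.1 to 33.6 CPM in the 4 knockdown libraries, which did not overlap.

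Among 10 spindle genes around FAM83D, 1 rose and 1 fell with shRBM10#1 and 1 rose and 3 fell with shRBM10#2. HMMR, the spindle partner of FAM83D, was at 190 and 197 CPM with shScr, 218 and 194 with shRBM10#1 and 253 and 255 with shRBM10#2. It was not called with shRBM10#1 and rose with shRBM10#2 by a log2 FC of 0.39 (FDR = 0.00204). DYNC1H1, the dynein heavy chain, fell with both, by 0.38 and 0.42 on the log2 scale. Of 15 mitosis genes, none was called with shRBM10#1, and 4 rose and none fell with shRBM10#2. Of all 14217 tested genes, 1708 were called and higher with shRBM10#2 and 1977 were called and lower. CDK1, the kinase that drives entry into mitosis, rose most among the 4 mitosis genes (0.60, FDR = 9.2e-05), with UBE2C (0.49), CCNB2 (0.31) and KIF20A (0.24). PLK1, CDC20 and TOP2A were not called (-0.09, -0.00 and 0.02).

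Of 10 keratins and FAM83H partners, 2 rose with shRBM10#1, and 1 rose and 4 fell with shRBM10#2. KRT19, a keratin of simple epithelia, went opposite ways with the shRNAs, with log2 FCs of 0.28 (FDR = 0.012) and -0.28 (FDR = 0.00842), and differed between them by -0.56 (FDR = 0.000216). The abundant KRT8 and KRT18 were not called against shScr. KRT14 and KRT5, the pair of basal epithelia, fell with shRBM10#2 (-3.62 and -1.80) from low levels, as KRT14 was at 3.51 and 3.43 CPM with shScr and at 0.35 and 0.209 CPM with shRBM10#2. Both were uneven with shRBM10#1, where KRT14 was at 4.57 and 1.33 CPM.

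Among 14 Wnt and BMP genes around FAM83F and FAM83G, 2 rose with shRBM10#1, and 5 rose and 1 fell with shRBM10#2. AXIN2, a target of Wnt signalling and an inhibitor of it, rose with both (1.27, FDR = 0.000235, and 0.78, FDR = 0.00428). It was at 4.07 and 3.59 CPM with shScr, 8.02 and 10.4 with shRBM10#1 and 6.95 and 6.24 with shRBM10#2. SMAD1, the partner of FAM83G and a carrier of BMP signals, rose with both (0.76, FDR = 9e-05, and 0.53, FDR = 0.000993). It was at 22.2 and 21.5 CPM with shScr and 30.8 to 39.4 CPM in the knockdown libraries, so the groups did not overlap. CTNNB1, GSK3B and APC were not called with either shRNA.

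**Figure D5:**
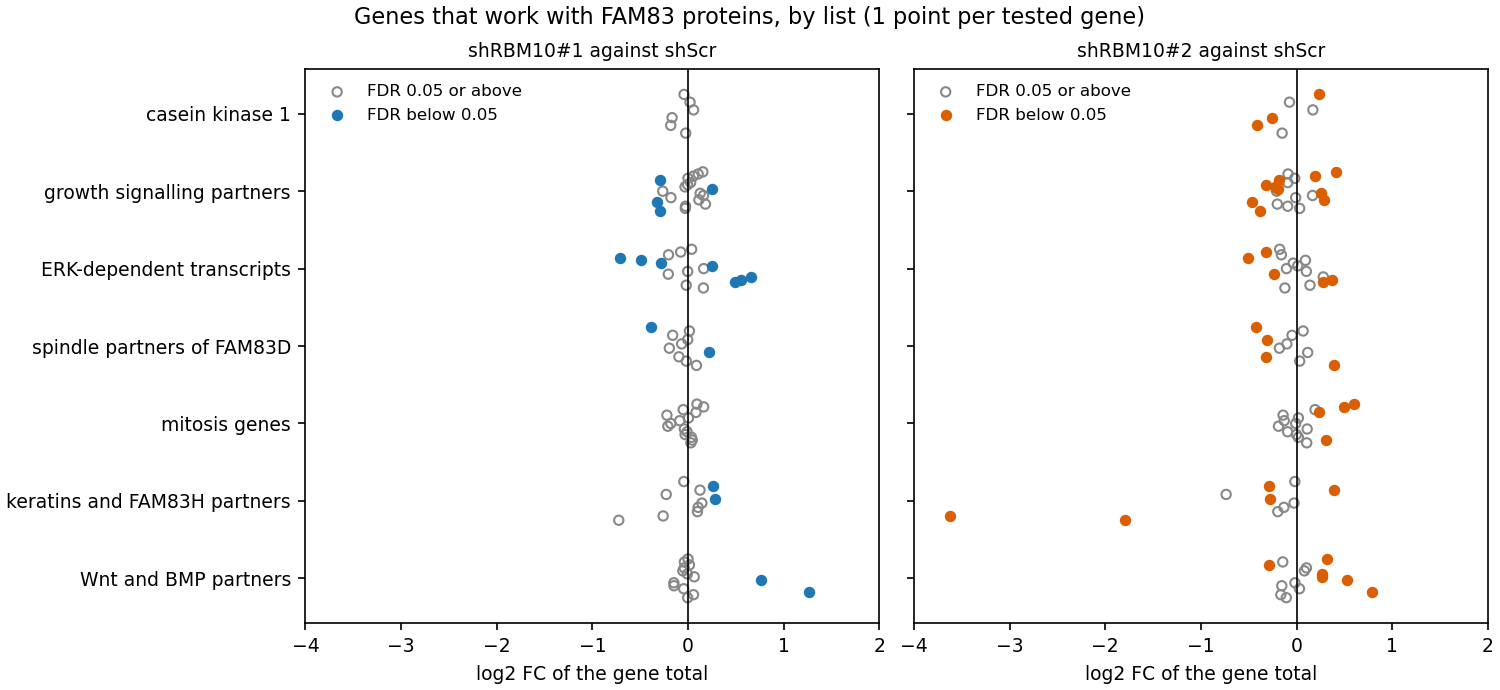
The log2 FC (x axis) with shRBM10#1 and shRBM10#2 against shScr of the tested genes on 7 lists of genes that work with FAM83 proteins, 1 point per gene. Filled points passed an FDR of 0.05. AXIN2 (1.27 and 0.78) and SMAD1 (0.76 and 0.53) rose with both shRNAs, and KRT14 (-3.62) lies lowest with shRBM10#2.

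Profiles over the 6 libraries were compared by the root mean square difference of log2 CPM after centring each gene on its mean. The genes nearest to FAM83A were MINOS1-NBL1, IGFN1, KCNMA1, SATB1 and LCP1, at 0.139 to 0.231 log2 units. The first 4 had 0.299 to 3.63 CPM, and MINOS1-NBL1 is a readthrough transcript whose reads may belong to its parts. LCP1, which encodes the actin-bundling protein plastin 2, was at 130 and 146 CPM with shScr, 84.3 and 78.8 with shRBM10#1 and 59.8 and 64.0 with shRBM10#2. The 3 nearest genes of FAM83B, FAM83D, FAM83G and FAM83H were at 0.008 to 0.027 log2 units. They were G6PC3, AKAP17A and PRKCSH for FAM83G, PPL, CIZ1 and PLOD3 for FAM83H, TMEM39A, KIN and DCAF13 for FAM83B, and FLVCR1, BAG3 and SRSF2 for FAM83D. With log2(TPM + 1) in place of CPM, 2 of the 5 nearest genes of FAM83A were the same. So were all 3 for FAM83D and 2 of the 3 for FAM83B, FAM83G and FAM83H. The nearest genes were picked as the smallest distances among all tested genes over only 6 libraries. Nothing is read from how small the distances are.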

How the data were processed

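The RNA of 6 PC-9 libraries was sequenced and, per the labels, processed with STAR 2.4, RSEM 1.2.29 and edgeR on hg19. The strand protocol is not given in the sources used here. The authors deposited an expected count per isoform and library (estimated, so not whole), TPM and FPKM (levels corrected for length) and the percent of its gene that each isoform holds.

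Expected counts were summed by gene symbol and rounded to whole numbers. They were tested with the quasi-likelihood test of edgeR 4.0.16 (R 4.3.3, TMM scaling, filterByExpr, all 6 libraries, 1 coefficient per condition) and diffSpliceDGE. A call is a Benjamini-Hochberg FDR below 0.05 over all genes or isoforms tested. Tests were two-sided. The tests were tested on simulated data. Library totals of 31953729 to 37557507 counts and 2 libraries per condition set the precision.

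Members, gene lists and naming rules were chosen with earlier results of these data known. Named are all members, RBM10, list genes called with both shRNAs in 1 direction or otherwise up to 3 with the largest log2 FC, fixed partners (CK1 genes, HMMR, EGFR), and the nearest profiles of members above 10 CPM. One item is not reported here. Others named as not called, ZHX1, ATAD2 and MINOS1-NBL1's nature were added after values were seen.

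Alternatives were DESeq2 1.42.0, its size factors, no filter, at least 10 counts per library, a replicate block, other libraries in the fit, an absolute log2 FC above 1, limma 3.58.1 diffSplice, and each library left out. A GC offset (loess, span 0.3) and a crossed block were added after seeing the data. Same-numbered libraries did not deviate together (correlations -0.12, -0.062 and -0.05), so no block was used. Counts of replicates were not within sampling noise of each other (chi-square of 11.4 to 16.5 for each degree of freedom). Of the 51398 isoforms, 91.8% matched a GENCODE 29 transcript, and genome positions are those of GRCh38, not converted from hg19. Python 3.11.15 with SciPy 1.17.1 and matplotlib 3.10.9 made intervals and figures.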

Additional observations from a re-analysis of the deposited data

Results flagged for a closer look

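FAM83A, FAM83G and FAM83H differed between the shRNAs by the edgeR test of shRBM10#2 against shRBM10#1, with log2 FCs of -0.36, -0.39 and -0.31. The medians of all genes in the same comparison ran from 0.16 in the poorest of 5 groups of GC content to -0.21 in the richest, and across 13733 genes the log2 FC had a Spearman correlation of -0.47 with GC content, given as a description of these libraries. With the GC offset the values were -0.24, -0.19 and -0.05. With 2 libraries per condition, no library could be tested for standing apart.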

How the results depend on the processing

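Over the alternatives of edgeR, DESeq2 and single libraries left out, no member's gene-total call turned direction. FAM83A against shScr ranged from -1.28 to -1.24 with shRBM10#1 and from -1.63 to -1.52 with shRBM10#2. Called among FAM83B to FAM83H were 3 genes with shRBM10#2 and 2 between the shRNAs. With an absolute log2 FC above 1 both became 0, and with the GC offset the second became 0. Leaving out 1 library gave 1 to 3 and 1 to 2 genes, and 0 to 1 genes both with shRBM10#1 and for the pooled shRNAs. One coefficient per condition gave 2 genes (FAM83E and FAM83H) for the pooled shRNAs.

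Over all genes, 1996, 3685, 3628 and 230 were called with shRBM10#1, with shRBM10#2, between the shRNAs and with the shRNAs pooled. An absolute log2 FC above 1 left 267, 185, 169 and 56. The pooled count was 718 by DESeq2, 2610 with one coefficient per condition, 52 with the replicate block, 21 with that block crossed and 484 with the GC offset, which left 1930 between the shRNAs. Leaving out 1 library gave 985 to 2626, 954 to 4566, 918 to 3736 and 0 to 413 genes. Over all isoforms 8, 597, 595 and 0 were called by edgeR (2875 of the last at an unadjusted p under 0.05), and 2416, 4597, 4251 and 818 by DESeq2. At least 10 counts in every library gave 380, 1647, 1403 and 18. The replicate block, crossed or not, left 0 in each, as did fitting only the compared libraries with shRBM10#1 and between the shRNAs. No filter gave 39 with shRBM10#1, one coefficient per condition 42 for the pooled shRNAs, and an absolute log2 FC above 1 left 130 with shRBM10#2 and 95 between the shRNAs. Leaving out 1 library gave 0 to 1, 0 to 151, 0 to 2 and 0 to 2 isoforms. Changed isoform usage was called in 11, 176 and 123 genes. The replicate block gave 4, 83 and 48, limma 42, 571 and 339, and at least 10 counts 7 with shRBM10#1 and 81 between the shRNAs. Leaving out 1 library gave 5 to 39, 34 to 151 and 27 to 114. The cause of these shifts was not tested. The replicate block changed no gene-total call of a member and ended the isoform call of FAM83G between the shRNAs. With 97 to 176 counts, FAM83E has the widest interval, and FAM83C and FAM83F lie under the floor of 3 counts.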
